A study of Drosophila melanogaster with 4 samples.

Results

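The loops described here were called as long-range contacts on the autosomes of Drosophila Kc167 cells. They have at least 50 kb between the starts of their 2 anchors, and the BG3 loop list held no counterpart. A loop counted as Kc167-only when no BG3 loop on the same chromosome had both anchor starts within 10 kb of its own. By this rule 302 loops were members, out of 1126 autosomal and 1409 total loops called in Kc167. For comparison, 2 other classes of Kc167 loops were used: 33 loops of at least 50 kb shared with BG3, and 530 Kc167-only loops under 50 kb. The members were thus chosen by 2 measured values, length and offset from the nearest BG3 loop, so both are described without a test, as is the contact ratio on which the loops were called.

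In situ Hi-C cuts cross-linked chromatin in intact nuclei, here with the restriction enzyme DpnII, and joins ends that lie close in space. It was performed on cells of 2 lines for which the labels name no treatment or genotype, with 2 biological replicates each. Kc167 is a female line of embryonic origin with features of blood cells. BG3 cells are male and derive from the central nervous system of larvae. Each line is a single long-cultured cell line and no expression was measured in these files, so markers of blood and neural cells could be placed on the genome but not used to check the lines.

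A loop here is a 2 kb by 2 kb pixel of the contact map that holds more contacts than its surroundings. Bins or genes said below to meet are at the 2 anchors of such a called pixel. Topologically associating domains (TADs) are stretches of chromosome whose sequences contact each other more than they contact the neighbouring stretches, and borders separate them. In Drosophila, loops are known to join promoters, enhancers, Polycomb-bound elements and insulator sites, and Polycomb-bound genes in particular can meet across several TADs. The donut-expected count is the number of contacts predicted for a pixel from a ring of pixels around it, and the ratio of observed to expected contacts is the contact ratio used below.

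The replicates of each line were merged before TADs and loops were called, so each line is 1 map and no spread between replicates can be given. Tests below compare classes of Kc167 loops or, by the McNemar test, the same loops on the TADs of both maps. The BG3 map was made from fewer read pairs. The median loop had 65 observed contacts in the autosomal Kc167 list of 1126 loops and 54 in the BG3 list of 771. Absence from the BG3 list was not tested as absence of contact, nor was the part of depth in it. In BG3, 147 autosomal loops reached 50 kb, 116 of them without a Kc167 counterpart under the same rule, against 335 and 302 in Kc167.

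The promoters of 6 genes are shown because their genes lie at the anchors of loops that recur below. Each runs from 250 bases before to 50 bases after the annotated 5′ end, on the gene's strand, in the dm6 assembly. Capitals mark GAGAG (the core bound by the GAGA factor), CGATA (found in sites of BEAF-32 and Dref) and GCCAT (the core of Pho sites, a Polycomb recruiter), each on either strand. The first pair, esg and wor, face each other across a 92 kb loop, toy and Actbeta across a 96 kb loop, myo lies at anchors of 2 loops, and CG5681 starts in the most reused anchor.
esg, chr2L:15333616-15333915, plus strand: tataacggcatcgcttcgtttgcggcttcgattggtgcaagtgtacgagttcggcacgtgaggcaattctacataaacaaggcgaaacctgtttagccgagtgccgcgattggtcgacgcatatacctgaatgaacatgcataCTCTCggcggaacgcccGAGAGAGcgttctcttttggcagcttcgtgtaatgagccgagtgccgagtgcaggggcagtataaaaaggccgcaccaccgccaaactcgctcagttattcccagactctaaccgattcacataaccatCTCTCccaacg
wor, chr2L:15425531-15425830, minus strand: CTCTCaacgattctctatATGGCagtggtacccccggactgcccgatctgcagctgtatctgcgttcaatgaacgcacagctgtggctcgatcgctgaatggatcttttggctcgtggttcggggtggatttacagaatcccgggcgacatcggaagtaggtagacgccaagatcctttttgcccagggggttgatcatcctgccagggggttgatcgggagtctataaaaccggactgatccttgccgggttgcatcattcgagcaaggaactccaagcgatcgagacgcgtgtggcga
toy, chr4:989475-989774, plus strand: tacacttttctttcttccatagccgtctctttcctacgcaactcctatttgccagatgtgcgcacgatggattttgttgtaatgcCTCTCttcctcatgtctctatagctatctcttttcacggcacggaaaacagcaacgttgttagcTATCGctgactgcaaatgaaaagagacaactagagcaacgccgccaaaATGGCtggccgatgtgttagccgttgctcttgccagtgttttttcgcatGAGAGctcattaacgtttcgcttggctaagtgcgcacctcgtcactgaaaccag
Actbeta, chr4:1084747-1085046, minus strand: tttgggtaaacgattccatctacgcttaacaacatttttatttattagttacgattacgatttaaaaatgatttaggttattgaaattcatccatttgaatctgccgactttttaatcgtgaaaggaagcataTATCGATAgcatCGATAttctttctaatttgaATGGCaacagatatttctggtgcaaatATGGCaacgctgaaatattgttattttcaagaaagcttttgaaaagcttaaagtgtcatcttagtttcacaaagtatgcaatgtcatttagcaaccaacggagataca
myo, chr4:696006-696305, minus strand: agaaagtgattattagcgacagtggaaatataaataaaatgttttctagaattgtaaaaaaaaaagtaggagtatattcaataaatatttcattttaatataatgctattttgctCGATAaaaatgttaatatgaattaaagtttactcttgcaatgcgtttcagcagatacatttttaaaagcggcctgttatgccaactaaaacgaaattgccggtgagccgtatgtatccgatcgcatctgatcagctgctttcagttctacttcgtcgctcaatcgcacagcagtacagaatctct
CG5681, chr2L:17986149-17986448, plus strand: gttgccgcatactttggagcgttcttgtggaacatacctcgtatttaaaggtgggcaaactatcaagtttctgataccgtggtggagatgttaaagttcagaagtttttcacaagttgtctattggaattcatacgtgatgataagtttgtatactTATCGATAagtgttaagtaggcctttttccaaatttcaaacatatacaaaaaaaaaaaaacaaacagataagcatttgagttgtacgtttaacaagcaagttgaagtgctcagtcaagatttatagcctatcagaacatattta

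The esg promoter held 4 matches to GAGAG, the toy promoter 2 and the wor promoter 1, overlapping matches counted singly. None lay in those of Actbeta, myo and CG5681. Matches to CGATA numbered 3 in Actbeta, 2 in CG5681 and 1 each in toy and myo. TATCGATA counts as 2, because the motif overlaps its own reverse complement. Matches to GCCAT numbered 2 in Actbeta and 1 each in wor and toy. Among the 11749 promoters of autosomal protein-coding genes, 30.1% held GAGAG, 46.2% CGATA and 40.6% GCCAT. A match describes the letters in the window and not binding.

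Members spanned a median of 95 kb between anchor starts, with quartiles at 62 and 162 kb, and the longest spanned 25232 kb. The median member had 39 observed contacts against 12.7 expected, and a contact ratio of 3.05. The 33 shared loops of the same length range had a median of 62 observed and 24.4 expected contacts and a ratio of 2.71. Fewer pixels had been merged into a member (median 2) than into a shared long loop (median 4), and 127 members (42.1%) rested on 1 pixel, against 7 of the shared loops (21.2%). The Kc167-only loops under 50 kb had the same median of 2 pixels, and 197 of 530 (37.2%) rested on 1 pixel. For 106 members at least 1 of the 4 q-values exceeded 0.01. The precision of a pixel follows from its contacts: for one with 40 observed contacts, the exact Poisson 95% interval was 28.6 to 54.5, which covers counting error only.

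**Figure D1:**
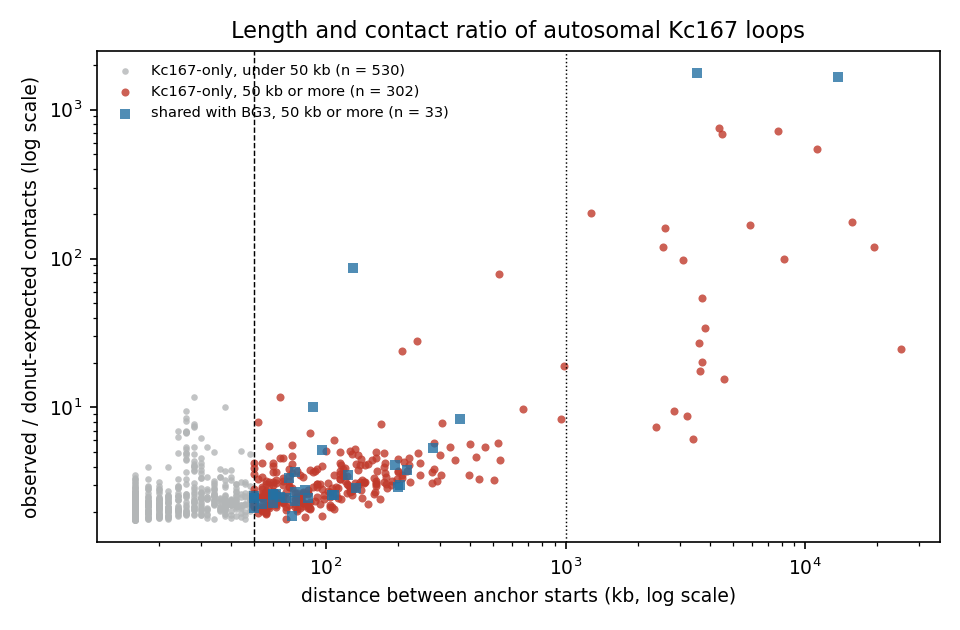
Distance between anchor starts (kb, log scale) against the ratio of observed to donut-expected contacts (log scale) for 302 Kc167-only loops of 50 kb or more, 33 shared loops of that length and 530 Kc167-only loops under 50 kb, 1 point per loop. The dashed line marks 50 kb and the dotted line 1 Mb. Points with a ratio above 100 all lie beyond the dotted line, where the expected counts of members are at most 3.39.

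At the length limit, 15 members spanned exactly 50 kb and 13 Kc167-only loops just outside it spanned 48 kb. The first 3 members at the limit had contact ratios of 2.25, 2.17 and 2.24, and the first 3 loops outside it 2.30, 4.87 and 2.10. At the limit for sharing, the members closest to a BG3 loop were offset from it by 12, 12 and 14 kb, with ratios of 11.8, 2.29 and 1.98. The shared loops closest to the limit were offset by 10, 8 and 8 kb, with ratios of 1.86, 2.59 and 2.26. Taking the larger of both anchor offsets, 150 of the 302 members had no BG3 loop within 100 kb. This offset tends to grow with loop length, since a shorter loop cannot lie near both anchors of a longer one.

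Some single anchors were also in use in BG3. Both anchors of 44 members (14.6%) lay within 10 kb of some BG3 anchor, although of different loops, 1 anchor did in 116 (38.4%) and none in 142 (47.0%). Of the 578 distinct member anchors 33.6% lay this close to a BG3 anchor, against 25.4% of all autosomal 2 kb bins and 19.5% of the anchors of short Kc167-only loops, values that the rule on BG3 loops bears on. One of the 2 members offset by 12 kb from a BG3 loop, on chr3L at 19424001-19426000 and 19488001-19490000, had 47 observed contacts over 3.97 expected. It was also 1 of 2 members whose anchors shared an exact stretch of 30 bases, and the mapping of reads between such copies was not tested.

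Members were unevenly spread over the arms. Arm 2L held 100 (4.25 per Mb), 3R 96 (2.99 per Mb), 3L 68 (2.42 per Mb) and 2R 28 (1.11 per Mb). The small chromosome 4 held 10, or 7.42 per Mb. Relative to all loops called on the arm, members made up 34.1% on 2L, 20.9% on 2R, 23.3% on 3L, 25.1% on 3R and 41.7% on chromosome 4.

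Most members joined different TADs. In the Kc167 map 54 members lay inside a single TAD, 75 crossed 1 border, 66 crossed 2, 45 crossed 3 and 62 crossed 4 or more, with a median of 2 borders. The share inside a single TAD, 17.9% (95% Wilson interval 14.0 to 22.6%), was lower than the 42.4% (27.2 to 59.2%) of the shared long loops, 14 of 33. The difference was -24.5 percentage points (95% interval -41.8 to -8.64), with an adjusted p of 0.0135 by a two-sided Fisher's exact test over 12 planned comparisons. Length differed between the classes as well: among loops of 50 to 100 kb only, 49 of 157 members (31.2%) and 12 of 20 shared loops (60.0%) lay inside 1 TAD, and the adjusted p was 0.0884. Without arm 2L the shares were 17.8% and 32.0% and the adjusted p 0.511, and without 2R the adjusted p was 0.0683.

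The number of borders crossed rose with length. Of 110 members of 50 to 75 kb, 35 crossed no Kc167 border and none crossed 4 or more. Of 86 members of 100 to 200 kb, 5 crossed none, and 28 crossed 3. All 37 members of 200 kb to 1 Mb crossed at least 1. Members of up to 1 Mb held 1.69 Kc167 borders per 100 kb between their anchors, shared loops of 50 kb to 1 Mb held 1.06, and the autosomes as a whole 1.88. With the loops over 1 Mb included, which hold most of the sequence spanned, the values were 1.95 for members and 1.94 for shared loops. When the stringent Kc167 TADs were used, 118 members crossed no border.

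**Figure D2:**
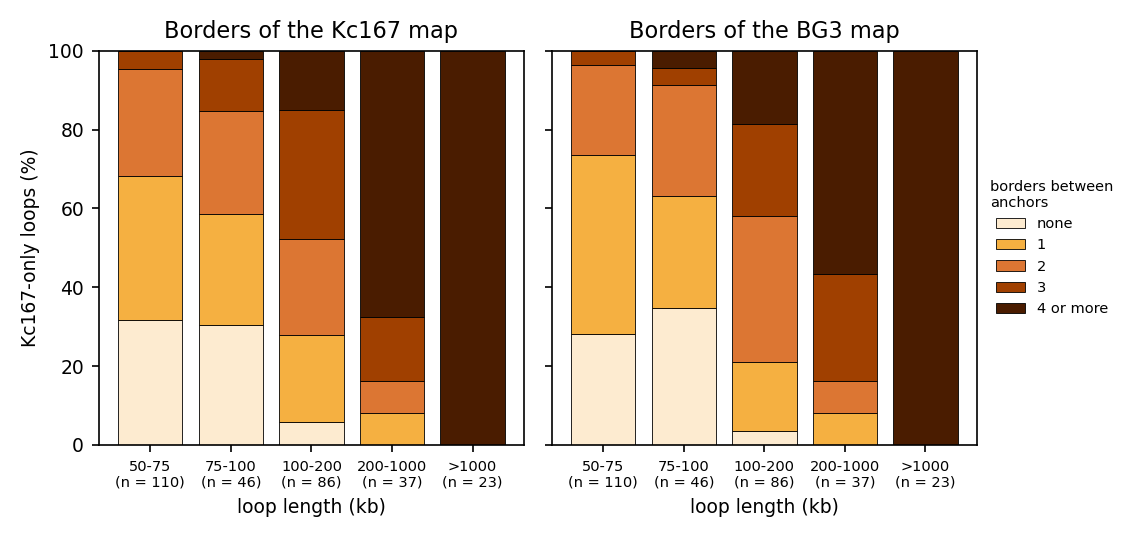
Share of the 302 Kc167-only loops (%) that crossed 0, 1, 2, 3 or at least 4 TAD borders between their anchor midpoints, by loop length in kb, with Kc167 borders on the left and BG3 borders on the right and the number of loops under each bar. In the 100 to 200 kb bars, 5 of 86 loops crossed no Kc167 border and 3 no BG3 border.

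The same loops were laid on the TADs of BG3, where they were not called. There 50 members lay inside a single TAD, against 54 in Kc167. In 30 the anchors shared a TAD in both maps, in 24 only in Kc167 and in 20 only in BG3, a difference that did not pass the exact McNemar test (two-sided p = 0.652, adjusted p = 1). Between the anchors, 103 members had more borders in Kc167, 90 had more in BG3 and 109 the same number. The stringent TADs gave 118 in Kc167 and 130 in BG3 with no border between anchors (adjusted p = 0.565, exact McNemar test).

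TAD borders were looked for at the anchors. A Kc167 border lay within 1 kb of an anchor in 55 members (18.2%), against 5 of 33 shared long loops (15.2%) and 103 of 530 short Kc167-only loops (19.4%). A BG3 border did so in 57 members (18.9%), against 6 (18.2%) and 91 (17.2%). None of these 4 comparisons passed the test (adjusted p = 1 in each, Fisher's exact test). The intervals of the differences ran from -13.2 to 12.8 and from -6.55 to 4.47 percentage points for Kc167 borders, and from -16.0 to 11.4 and from -3.58 to 7.34 for BG3 borders. Counted by distinct anchor, 52 of 578 member anchors had a Kc167 border and 58 (10.0%) a BG3 border within 1 kb, against 7.54% and 6.92% of all autosomal 2 kb bins. In 28 members a Kc167 border and a BG3 border each lay within 1 kb of an anchor, whether or not of the same anchor. No member had Kc167 borders at both anchors, and 4 had BG3 borders there, among them a 62 kb loop inside CG40006 on 2L with 90 observed contacts over 28.9 expected.

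**Figure D3:**
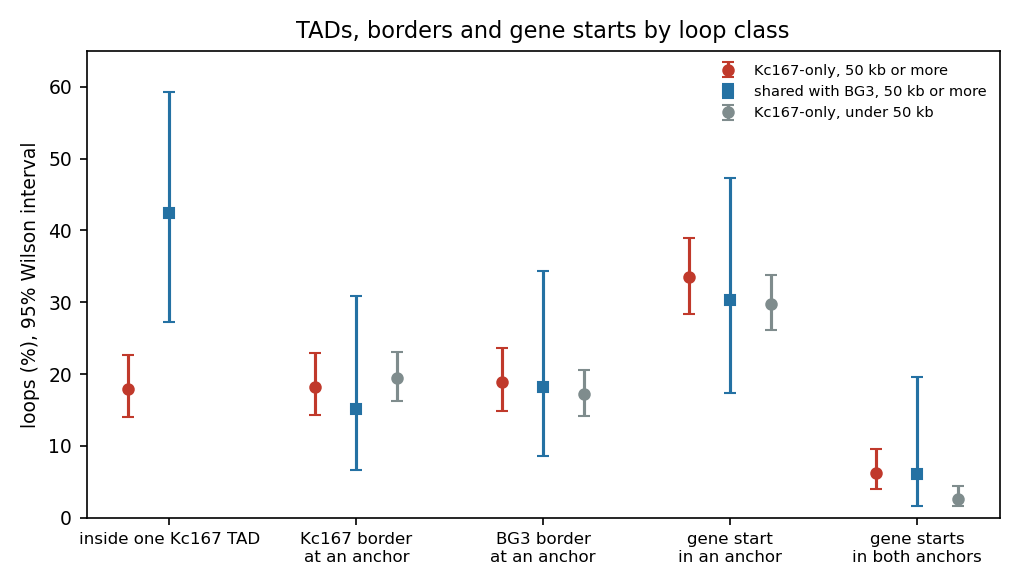
Share of loops (%) with each feature in Kc167-only loops of 50 kb or more, shared loops of that length and Kc167-only loops under 50 kb, with 95% Wilson intervals that cover counting error only. Loops under 50 kb were not compared for lying inside a TAD, because length sets it. The intervals of members (14.0 to 22.6%) and shared loops (27.2 to 59.2%) lie apart for that feature only.

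The 302 members had 604 anchor positions in 578 distinct 2 kb bins. Of these, 555 served 1 member, 21 served 2, 1 served 3 and 1 served 4, so 48 members (15.9%) had an anchor in common with another member. When anchors within 10 kb were joined, 55 of 540 places served at least 2 members, and 111 members (36.8%) had such an anchor. Counting all autosomal Kc167 loops, 95 member anchors (16.4%) were used more than once. Of the anchors not used by both classes, 48 of 531 member anchors (9.04%) and 38 of 989 anchors of short Kc167-only loops (3.84%) were in more than 1 loop, a difference of 5.20 percentage points (95% interval 2.64 to 8.13; adjusted p = 7.08e-04, Fisher's exact test). Peaks within 20 kb had been merged when the loops were called, which limits how many short loops can share an anchor, and with a length limit of 100 kb the difference was -2.29 points (adjusted p = 0.672, Fisher's exact test). Against shared long loops, 90 of 573 (15.7%) and 10 of 57 (17.5%) were reused (adjusted p = 1, Fisher's exact test; interval of the difference -14.0 to 6.53 points).

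The anchor with most partners lay on 2L at chr2L:17986001-17988000, over the start of CG5681, whose promoter is printed above. It met 4 bins 3594, 3636, 3728 and 3816 kb away, toward the centromere. These lay in nompB, whose protein serves intraflagellar transport in cilia, in CG2201, in nolo, and in a stretch without a protein-coding gene. Observed contacts were 33, 56, 18 and 23, over 1.22, 3.21, 0.894 and 0.675 expected, and between 67 and 72 Kc167 borders lay in between. All 4 partner bins held annotated transposon sequence, from 122 to 605 of their 2000 bases, and the anchor itself held none. Over all autosomal bins 11.0% held some, and the 4 partners lay close together, in a stretch where the member anchor at chr2L:21642001-21644000 held 674 such bases. The nompB bin also met a bin in Ac3, an adenylyl cyclase gene, 62 kb further on, with 68 observed over 20.8 expected contacts. By the larger of both anchor offsets, the nearest BG3 loop was at least 1854 kb from each of the 4 pairs, an offset that tends to grow with loop length. Taken singly, the nompB bin lay 0 kb, the CG2201 bin 8 kb and the CG5681 anchor 152 kb from the nearest BG3 anchor.

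The second such anchor lay at chr3R:2088001-2090000 in Myo81F, a myosin gene in the pericentric part of 3R. It met bins 7694, 19456 and 25232 kb away, with 31, 42 and 13 observed contacts over 0.0433, 0.349 and 0.523 expected. The first of these held MtnA, a metallothionein gene, the second no protein-coding gene and the last CG3339. The adjacent bin met cno, which encodes an adherens junction protein, 3088 kb away with 15 contacts over 0.153. These 4 loops crossed from 53 to 501 Kc167 borders. The anchor used by 2 members in Nnf1b and Dbp21E2 on 2L had the same form, with 15 and 19 contacts to GramD1B and Pgant2 at 2554 and 2596 kb. So did the anchor in CG32206 on 3L, with 17 and 12 contacts at 4374 and 1278 kb over 0.0227 and 0.0594 expected.

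Most other reused anchors had partners less than 1 Mb away. In Sema1a, a transmembrane semaphorin that guides axons, the bin at chr2L:8650001-8652000 met another bin of the same gene 70 kb upstream (38 observed, 13.1 expected) and CG45307 100 kb downstream (14 observed, 2.74 expected). Taf1, the largest TFIID subunit, met gpp, a histone H3 lysine methyltransferase, at 208 kb (79 observed, 23.6 expected) and Ufl1 at 422 kb (20 observed, 4.28 expected). Snap25, a SNARE protein of synaptic vesicle fusion, met CG40470 at 240 kb (33 observed, 1.19 expected) and its own gene body at 64 kb (17 observed, 3.72 expected). Naam met GluClalpha, a glutamate-gated chloride channel, at 54 and 84 kb. Near the distal end of 2L a cluster of bins between 808001 and 818000 served 4 members, of 62, 248, 2554 and 2596 kb.

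**Figure D4:**
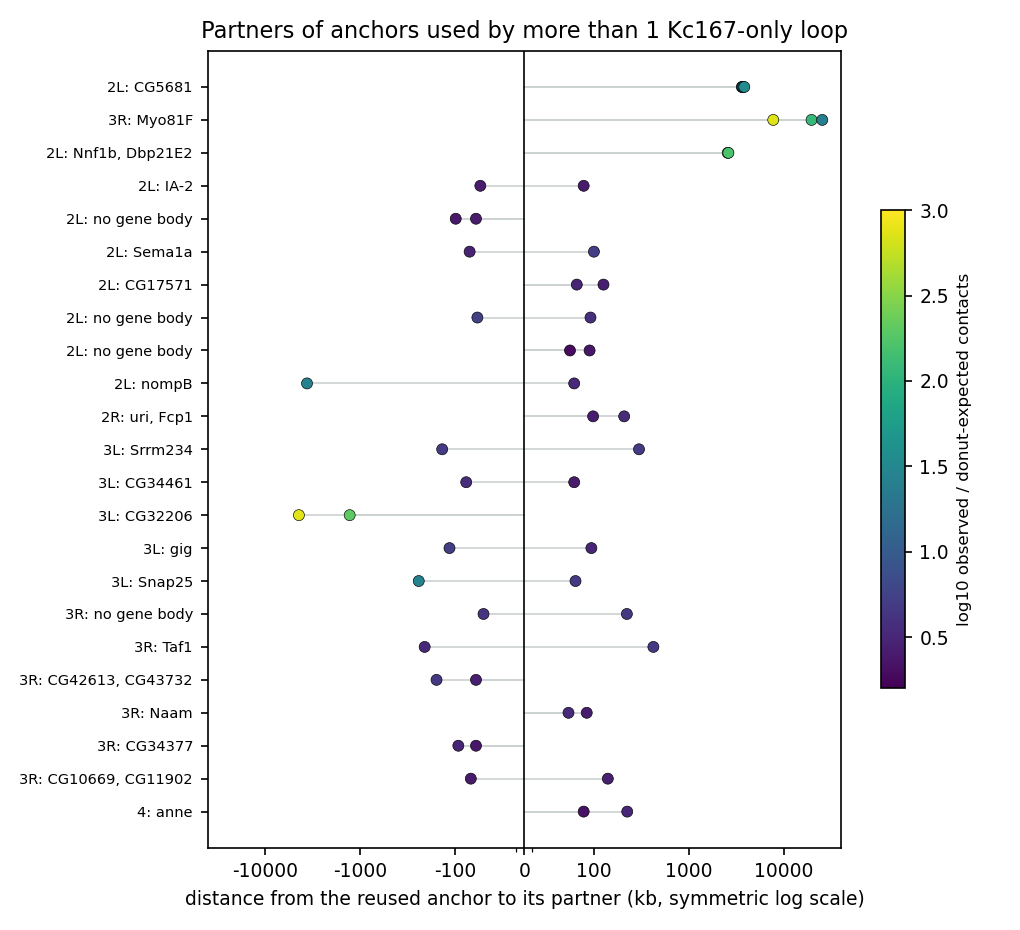
Distance in kb (symmetric log scale) from each of the 23 anchors used by more than 1 Kc167-only loop to its partners, with 1 row per anchor named by arm and gene and the colour giving log10 of the ratio of observed to expected contacts. Partners of CG5681, of Myo81F, of Nnf1b and Dbp21E2, and of CG32206 lie over 1 Mb away on 1 side, and most others lie closer.

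The 23 members over 1 Mb differed from the rest in their background. Their donut-expected counts had a median of 0.315 and a maximum of 3.39, observed contacts a median of 18, and ratios ran from 6.13 to 749. In 16 of the 23 the expected count was under 1, against 2 of the 279 members of up to 1 Mb, so their ratios rest on very small denominators. Such lengths were not particular to members. Of the 116 autosomal BG3-only loops of 50 kb or more, 21 exceeded 1 Mb. So did 2 of the 33 shared long loops, with ratios of 1761 and 1651. Among the 6 longest members were the Myo81F pairs of 25232 and 19456 kb and Myo81F with MtnA (7694 kb). The others were P58IPK with CHKov1 on 3R (15742 kb, 12 contacts), pyr with CG3788 and CNBP on 2R (11220 kb, 14 contacts), and kst with Mob2 on 3L (8198 kb, 23 contacts). Pyr is a ligand of the fibroblast growth factor family. Annotated transposon sequence lay in an anchor of 7 of these 23 (30.4%), of 24 of the 279 shorter members (8.60%), of 43 of the 530 Kc167-only loops under 50 kb (8.11%) and of 2 of the 33 shared long loops (6.06%). Of these 7, 4 were the pairs of the CG5681 anchor, which leaves 3 of 19 without it. By single bins, 6.57% of member anchors and 11.0% of all autosomal bins held such sequence. The Myo81F bins, in the pericentric part of 3R, held none, and the completeness of the annotation there was not checked. The part of transposon sequence in these calls was not tested. Whether the pixels over 1 Mb are contacts, mapping effects or rearrangements of the cell line was not tested either.

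Below 1 Mb, the longest 2 members stood out by their contacts. On 2L, bins at 1210001-1212000 and 2194001-2196000 were joined over 984 kb with 142 observed contacts (95% Poisson interval 120 to 167) over 7.44 expected, a ratio of 19.1, the highest among members with at least 5 expected contacts. The second bin lay in COX7AL2, related by name to a cytochrome c oxidase subunit. Beside it, a bin in robo3, a receptor for the midline repellent Slit, met a bin 956 kb away with 92 contacts (74.2 to 113) over 11.0. That bin held the starts of Uch and CG34174, and daed started within 1 kb of it. These loops merged 25 and 36 pixels, crossed 22 and 20 Kc167 borders, and were offset by 498 and 488 kb from the nearest BG3 loop. That offset is the larger of both anchors and tends to grow with loop length. Whether the 2 neighbouring loops are separate, and whether they are contacts, mapping effects or rearrangements of the cell line, was not tested. The next 4 in length spanned 524 to 664 kb and had 12 to 16 contacts each, over 0.153 to 3.63 expected. They joined Gp210 and ZnT41F to a bin without a gene, LanA (the laminin alpha chain of basement membranes) to dikar, Nepl4 to Nlg2 (a neuroligin), and Orc5, PolG2 and GatC to Rab14.

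Other high ratios came from shorter loops. Jhbp15, named for juvenile hormone binding, and Tbc1d22 were joined across 52 kb of 3R with 413 contacts (374 to 455) over 51.9 expected, a ratio of 7.95, across 2 borders in each map. A bin in wda, which encodes a subunit of the SAGA acetyltransferase complex, with the start of Pex11c within 1 kb, met an intron of pnt, the ETS transcription factor of epidermal growth factor receptor signalling, over 72 kb. That loop had the most contacts of all members, 441 (401 to 484) over 78.8 expected, merged 38 pixels and crossed 3 borders in Kc167 and 1 in BG3. Dap160, an endocytic scaffold protein, met CG42238 over 132 kb with 61 contacts over 11.6, CG12617 lay beside an anchor of a 58 kb loop with 53 over 9.64, and CG7702 and CG31230 met an intron of CG6040, within 1 kb of the start of the cytochrome P450 gene Cyp12a5, over 460 kb with 31 over 5.74.

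Protein-coding genes started in at least 1 anchor of 101 members (33.4%, Wilson interval 28.4 to 38.9%), against 10 of 33 shared long loops (30.3%) and 158 of 530 short Kc167-only loops (29.8%). Neither difference passed the test (adjusted p = 1 and 0.831, Fisher's exact test), with intervals of -14.6 to 17.2 and -2.85 to 10.3 percentage points. Gene starts in both anchors were found in 19 members (6.29%) and 14 short loops (2.64%), a difference of 3.65 points (95% interval 0.822 to 7.14) with an unadjusted p of 0.0150 and an adjusted p of 0.0601. With each transcript start counted, the shares were 8.28% and 3.40% and the adjusted p 0.0124 (Fisher's exact test). In 11 of 14 alternative settings the difference still missed the threshold, with adjusted p up to 0.511 (Fisher's exact test). Against shared long loops the shares were 6.29% and 6.06% (adjusted p = 1, Fisher's exact test). Of the 578 member anchors, 19.7% held a gene start, against 16.8% of all 55167 autosomal bins of 2 kb.

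Among the 19 loops with a start at both ends, kto, a subunit of the kinase module of Mediator, met Su(z)12, a subunit of Polycomb repressive complex 2, over 86 kb of 3L with 21 contacts over 3.12 expected. CG2611 met dia, a formin that nucleates actin filaments, over 108 kb with 17 over 2.81. Hakai, an E3 ubiquitin ligase, and PCNA2 met CG10628 and Dus3 over 176 kb with 29 over 6.86. AurB, the mitotic kinase Aurora B, and Stam met CG16743 over 114 kb with 36 over 10.8. The remaining pairs spanned 50 to 394 kb apart from P58IPK with CHKov1.

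Anchor midpoints lay in exons of protein-coding genes for 46.0% of the 578 member anchors, in introns for 30.1% and between genes for 23.9%. In all autosomal bins these shares were 25.0%, 41.5% and 33.4%. This comparison was added after the values were seen: leaving out anchors used by both classes, 252 of 531 member anchors (47.5%) and 340 of 989 anchors of short Kc167-only loops (34.4%) had an exonic midpoint, a difference of 13.1 points (p = 8.67e-07, adjusted over 2 comparisons 1.73e-06, Fisher's exact test). Against shared long loops the shares were 46.1% and 43.9% (adjusted p = 0.782, Fisher's exact test). Median GC content was 44.6% at member anchors, 43.7% at anchors of short Kc167-only loops, 45.1% at those of shared long loops and 41.9% in all bins. The short class differs from members in loop length by its definition. The parts of length and of GC content in the difference were not tested.

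Genes with their 5′ end within 1 kb of a member anchor numbered 315 of 11749 autosomal protein-coding genes, which is 2.68%. Of 99 developmental transcription factor genes outside the segmentation and homeotic lists, 6 had such a start: Lim3, amos, esg, sim, toy and wor. The counts were 3 of 35 for neuroblast and neural genes (SerT, esg and wor), 2 of 51 for secreted signals and receptors (Actbeta and myo), 2 of 39 for architectural and Polycomb group proteins (Su(z)12 and esc), and 1 of 41 for blood cell genes (PPO2). They were 0 of 35 for segmentation and homeotic genes, 0 of 71 for axon guidance and adhesion genes, 0 of 23 for ecdysone response genes, 1 of 78 for ribosomal proteins (RpL4), 2 of 154 for chemoreceptors (Gr98b and Ir60b) and 1 of 114 for cuticle proteins (TwdlF). Lists with so few hits were not tested, and esg and wor count in 2 lists through 1 loop.

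The esg and wor loop was the only member with starts of genes from 1 list at both anchors. Both encode zinc finger transcription factors of the Snail family, of which escargot keeps imaginal and stem cells undifferentiated and worniu acts in neuroblasts. Their anchors, chr2L:15334001-15336000 and chr2L:15426001-15428000, lay 92 kb apart and had 68 observed contacts (95% Poisson interval 52.8 to 86.2) over 23.2 expected, a ratio of 2.94. The esg anchor had its midpoint in an exon of esg, and the wor anchor lay just before the 5′ end of wor. No border of either map lay between them, and the nearest BG3 loop was offset by 128 kb.

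Other transcription factor genes met genes of other classes. Lim3, a LIM homeodomain factor of motor neurons, met the body of brat, a translational repressor in dividing neuroblasts, over 62 kb of 2L with 70 contacts over 19.0 expected across 3 Kc167 and 2 BG3 borders. Amos, a proneural factor of olfactory organs, met bsf over 146 kb with 28 over 6.87. Sim, the master regulator of midline cells, met CG7381 over 88 kb of 3R with 32 over 8.73. Of the genes of Polycomb repressive complex 2 subunits, esc met CG6686 over 158 kb of 2L with 45 over 17.1, and Su(z)12 met kto as given above. A bin in CG45069 and PIG-Z met the ionotropic receptor gene Ir60b over 104 kb of 2R with 55 over 24.8. SerT, the serotonin transporter, started within 1 kb of that bin but did not overlap it. PPO2, a prophenoloxidase of crystal cells, lay in an anchor of a 5872 kb pair with Kank that had 33 contacts over 0.198 expected.

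The 10 members of chromosome 4 joined several of its developmental genes, and none of them lay inside a single Kc167 TAD. Toy, a Pax6 homologue, met Actbeta, an activin-type ligand, over 96 kb with 45 contacts (32.8 to 60.2) over 15.9 expected, across 1 Kc167 and 3 BG3 borders. Further into toy, an intronic bin met the glutamate receptor gene mGluR over 58 kb with 28 over 9.35. Myo, which encodes the transforming growth factor ligand myoglianin, met the zinc finger homeodomain gene zfh2 over 170 kb with 40 contacts (28.6 to 54.5) over 5.15, a ratio of 7.77, across 5 Kc167 and 3 BG3 borders. A second bin of myo met Eph, a receptor tyrosine kinase, over 72 kb with 35 over 7.36, and a second bin of zfh2 met gw over 134 kb with 30 over 7.15. The forkhead gene fd102C met fuss over 122 kb with 33 over 10.8, CG33978 met the homeobox gene onecut over 436 kb with 21 over 6.37, and a bin in dati met a bin without a gene over 54 kb with 46 over 18.6. A single bin of anne met CG31999 at 78 kb and Hcf at 224 kb, with 51 and 22 contacts. These pairs other than the list genes were chosen after their values were seen.

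Gene bodies that overlapped an anchor were examined after the starts. They numbered 572 of 11749, or 4.87%, and were longer than genes at large, with a median of 5.80 kb against 2.10 kb. Among axon guidance and adhesion genes 11 of 71 overlapped an anchor, none through its start: Dscam3, Dscam4, Eph, Lar, Nlg2, Ptp99A, Sema1a, beat-IIIa, beat-IIa, drl and robo3. Gene length was not matched, and none of these counts was tested. Dscam3 and beat-IIa, both of the immunoglobulin superfamily, met each other over 142 kb of 3R with 26 contacts over 7.97, across 2 borders in Kc167 and none in BG3. The counts were 5 of 35 for neuroblast and neural genes (Syt1, brat, bru3, esg and svp), 10 of 99 for other transcription factors, 4 of 41 for blood cell genes (Glt, Hml, LanA and PPO2), 2 of 23 for ecdysone response genes, 4 of 51 for signals and receptors and 3 of 39 for architectural and Polycomb group proteins. They were 3 of 154 for chemoreceptors, 1 of 114 for cuticle proteins, 0 of 35 for segmentation and homeotic genes and 0 of 78 for ribosomal proteins. The Hml bin, in the gene of the clotting protein hemolectin, met Spt20 over 344 kb with 46 over 10.3.

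In 13 of the 302 members both anchors lay in the body of the same gene. The same held for 3 of 33 shared long loops and 165 of 530 short Kc167-only loops. Loop length was not matched, and these counts were not tested. Among the 13 members, Sema1a had 2 such loops, of 54 kb (61 contacts over 23.2) and 70 kb (38 over 13.1). Lar, a receptor tyrosine phosphatase of axons and synapses, had one of 50 kb with 32 over 8.91. The others lay in tai, CG44153, CG40006, SLO2, Ptp61F, sif, Snap25, Dbp80, cv-c and CG34353, and spanned 50 to 68 kb. Of the 13, 2 lay inside a single Kc167 TAD and 5 inside a single BG3 TAD. The Sema1a loop of 70 kb crossed 2 borders in Kc167 and none in BG3.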

How the data were processed

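In situ Hi-C was performed on 2 biological replicates each of Kc167 and BG3 cells. The authors aligned reads with BWA 0.7.15-r1140 to dm6, merged replicates, called TADs with HiCExplorer and called loops with Juicer 1.7.6 (HiCCUPS, 2 kb pixels, Knight-Ruiz normalization, FDR 0.05, peaks within 20 kb merged). The deposited loop lists give the observed contact count, the expected contacts and 4 q-values per loop, and the deposited TAD lists give positions. Merging before deposition leaves only counting error to be measured.

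Anchors were compared with dm6 and Ensembl 115 genes, using Python 3.11.15, SciPy 1.17.1 and pandas 2.3.3. Shares were compared by two-sided Fisher's exact or exact McNemar tests with Benjamini-Hochberg adjustment over 12 planned tests, and intervals are Wilson, Newcombe or exact Poisson at 95%. Classes, TAD membership and adjustment were tested on simulated data. Members, gene lists and comparisons were chosen with earlier results of these data known. Named genes lie at anchors of at least 3 members, of the 8 highest ratios with 5 or more expected contacts, of the 6 longest members up to and over 1 Mb, or in the 11 lists with starts within 1 kb; others were named after their values were seen. Loops on X were not used here.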

Additional observations from a re-analysis of the deposited data

How the results depend on the processing

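No paired analysis was possible because both replicates of each line were merged in the deposited lists, and for the same reason no replicate could be left out. Values below are differences in percentage points, members minus the class compared. Of 186 recomputed differences, 147 kept their direction and their side of the threshold. Members numbered between 146 (length limit 100 kb) and 367 (40 kb) and were 196 with q-values at most 0.01.

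The lower share of members inside 1 Kc167 TAD, against shared long loops, kept its direction in all 14 alternatives but missed the threshold with shared loops set at 5 kb (-23.0), a limit of 100 kb (-12.0), without arm 2L (-14.2), without 2R (-22.1) and at 50 to 100 kb in both classes (-28.8). Anchor reuse against short Kc167-only loops reversed at 100 kb (-2.29), and counting anchors used by both classes, an alternative chosen after seeing the data as was leaving out chromosome 4, left it past the threshold. Starts in both anchors against short loops passed without loops over 1 Mb (3.81), without 3L (4.47) and with each transcript start (4.88). In the other 11 of 14 alternatives this difference missed the threshold. Exonic midpoints against short loops passed in all 11 alternatives, between 8.92 and 15.2.

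Against shared long loops, none of the remaining differences passed except anchor reuse at 100 kb (-27.1), and their signs turned in several settings. Kc167 borders turned at 5 kb sharing (-3.15), 40 kb (-0.0163), 100 kb (-5.95), without 2R (-1.75) and in the anchor itself (-2.47). BG3 borders turned at 5 kb (-2.18) and 20 kb sharing (-1.93), 100 kb (-3.90) and without 3L (-3.48). Gene starts turned at 40 kb (-5.48), at q 0.01 (-1.70), without 2R (-3.15), with all genes (-4.01) and within 1 kb (-4.26). Starts in both anchors turned at 5 kb sharing (-2.22), 40 kb (-0.278), q 0.01 (-1.19), without 2R (-1.80) and without 3L (-0.733). Anchor reuse turned at 40 kb (1.02), without 2L (1.99) and with anchors joined within 4 kb (10.7) or 10 kb (17.7). Exonic midpoints turned without 2R (-4.96). Against short Kc167-only loops, Kc167 borders turned at q 0.01 (1.85), BG3 borders at 40 kb (-0.138) and without 2L (-2.20), and gene starts at 40 kb (-1.10). The McNemar difference, Kc167 minus BG3, turned with stringent TADs (-3.97). The causes were not tested.

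The class of 33 shared long loops limits precision, and loops share anchors, so they are not independent. Expected counts under 5 lie behind 54 members, whose ratios are imprecise.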
